A study of Sus scrofa with 10 samples.

Results

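Cortical inhibitory interneurons are born in the ganglionic eminences of the ventral forebrain and migrate into the cortex. The DLX transcription factors act in all of these cells. LHX6 and its target SOX6 work in interneurons from the medial ganglionic eminence (MGE), which later express somatostatin (SST) or parvalbumin, while the orphan nuclear receptors NR2F1 (COUP-TFI) and NR2F2 (COUP-TFII), PROX1 and ADARB2 are known from interneurons of the caudal ganglionic eminence (CGE), which later express VIP, reelin or cholecystokinin. GAD1 and GAD2 make GABA, the transmitter of inhibitory neurons.

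The cells described here were interneurons of the fetal pig medial entorhinal cortex (MEC) that carried DLX transcripts and no LHX6 transcript. They were chosen on measured values, as cells with at least 3 UMIs (unique molecular identifiers, each standing for 1 captured transcript) of DLX1, DLX2, DLX5 and DLX6 together, at least 1 UMI of GAD1 and GAD2 together, and 0 UMIs of LHX6. The rule found 310 cells among the 24940 cells and nuclei of the 8 fetal libraries. These are called LHX6-negative DLX cells below. The presence of DLX and GAD and the absence of LHX6 are therefore no findings. A value of 0 UMIs means that LHX6 was not captured, and not that the cell did not express it.

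The study profiled the MEC of pigs by droplet sequencing, without any treatment, to follow how its neurons develop. Papain-dissociated whole cells gave 1 library at embryonic day 50 (E50_1, 3 pooled brains), 3 at day 60 (E60_1 and E60_2, 1 brain each; E60_3, 2 brains), 3 at day 70 (E70_1, 2 brains; E70_2 and E70_3, 1 brain each) and 1 from an adult (Adult_1). Nuclei sorted from frozen tissue gave 1 library each at day 70 (E70_nc) and from an adult (Adult_nc). The fetuses were crossbred, of both sexes, and came from a production farm. The brain numbers are those of the labels, and the study's own table exchanges them between E70_1 and E70_3. Only the day 60 and day 70 whole cells had replicate libraries. Cells of 1 library are not replicates, so all tests below compare libraries.

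The fetal libraries held 3089188 to 55755512 UMIs, at a median of 2616 in the nuclei and 4251 to 9403 UMIs per whole cell. Some libraries stood apart. E60_1, with 8171 cells, and E60_2, with 3479 cells, held 9 and 6 DLX UMIs in all, although 152 and 110 of their cells had at least 3 GAD UMIs with neither DLX nor LHX6. In E70_1 and E70_2, LHX6 UMIs were found in 29.0% and 35.8% of the cells that had no DLX or GAD UMI, against 0.892% to 2.16% in the other fetal libraries. LHX6 was not the only such gene, as 265 of the 22452 genes were over 4 times higher in those cells of both libraries than in each of the other 5 whole cell libraries (5 CPM added, where CPM is the UMIs of a gene scaled to a total of 1e+06 UMIs). Between any pair of libraries at most 1.83% of the barcodes of the smaller library were shared, and no shared barcode passed the rule in both.

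The LHX6-negative DLX cells came from 5 of the 8 fetal libraries. E60_3 held 152 of them among 2696 cells (5.64%, exact 95% confidence interval (CI) 4.80 to 6.58) and E70_3 held 118 among 3120 (3.78%, CI 3.14 to 4.51), so that these libraries, which shared a sequencing pool, gave most of the cells. E70_1 held 14 among 493 (2.84%, CI 1.56 to 4.72), E70_2 held 11 among 617 (1.78%, CI 0.893 to 3.17) and E50_1 held 15 among 5506 (0.272%, CI 0.153 to 0.449). None were found in E60_1, E60_2 or the E70 nuclei, which allows shares of up to 0.0367%, 0.0862% and 0.350%, the share that 3 cells would have made. These limits and intervals cover counting error only, for cells that pass the rule at the depth of their library. With each cell thinned to 2000 UMIs the mean share fell from 1.88% to 0.260% at day 60 and from 2.80% to 0.317% at day 70. The nuclei had a median of 2616 UMIs, so their limit does not cover such cells that fell under the DLX threshold. In the nuclei 49 DLX UMIs were counted, no nucleus had more than 2, and 77.6% of them were DLX6, against 4.37% to 13.7% of the DLX UMIs in the 5 whole cell libraries with members.

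The 3 libraries of day 60 thus spanned from 0% to 5.64%, while those of day 70 lay within that range. The mean share was 1.88% ± 3.26 at day 60 and 2.80% ± 1.00 at day 70 (SD, n = 3). The difference of 0.922 percentage points was smaller than the spread at day 60 (exact permutation test over libraries, two-sided, p = 0.8, where 0.1 is the smallest p that 3 against 3 allows). Without E60_1 or without E60_2 it was -0.0174 percentage points, and without E60_3 it was 2.80.

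Among the cells that passed the DLX and GAD thresholds, those without LHX6 made up 71.4% in E50_1 (15 of 21), 77.6% in E60_3 (152 of 196), 73.7% in E70_1 (14 of 19), 32.4% in E70_2 (11 of 34) and 79.2% in E70_3 (118 of 149). E70_2 was low and the other 4 lay close together. In E70_1, LHX6 was found in 26.3% of the 19 DLX cells (CI 9.15 to 51.2) and in 29.0% of the cells with no DLX or GAD UMI, at 44.1 and 39.6 CPM, so that a difference was not detectable at this depth. In E70_2 the 2 shares were 67.6% and 35.8%, and in E60_3 and E70_3 they were 22.4% against 2.16% and 20.8% against 1.84%.

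**Figure D1:**
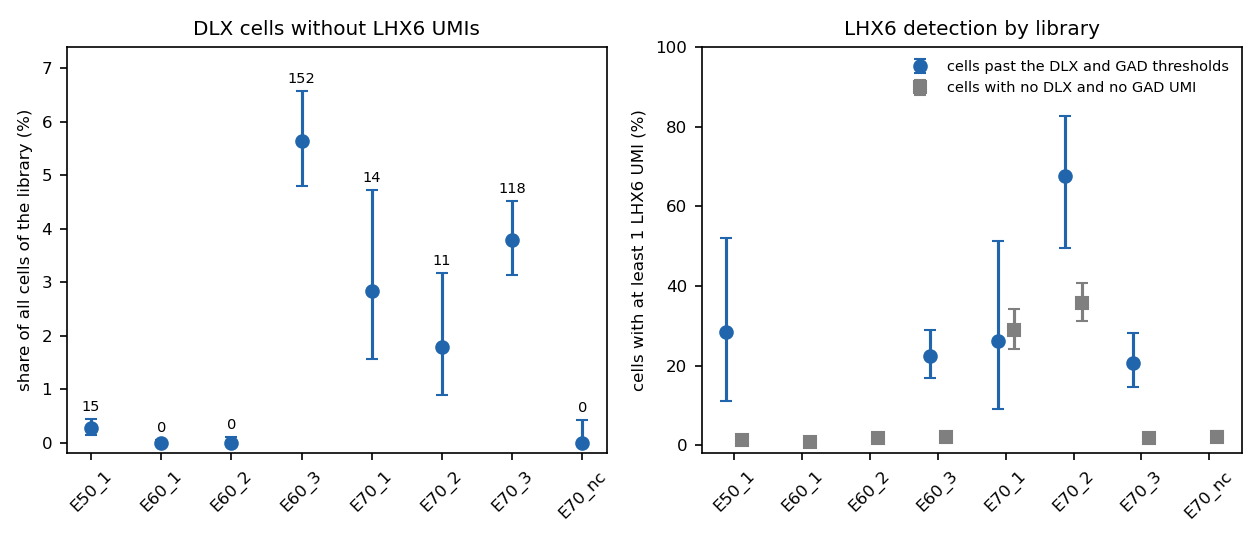
Left, share of cells (percent) that were LHX6-negative DLX cells in each fetal library, with exact 95% confidence intervals and the number of cells. Right, percent of cells with at least 1 LHX6 UMI among cells that passed the DLX and GAD thresholds and among cells with no DLX or GAD UMI. E60_3 and E70_3 lead on the left, and E70_1 and E70_2 stand out on the right, with LHX6 UMIs in 29.0% and 35.8% of the cells without DLX and GAD.

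The cells had a median of 6535 UMIs (4036 to 47218) and 2967 genes. Of them 66 had exactly 3 DLX UMIs, 64 had 4 and 180 had at least 5. Cells just outside, with 2 DLX UMIs and otherwise passing, numbered 87, and their levels were near those of the cells with 3: NR2F2 was at 84.5 against 101 CPM, NR2F1 at 276 against 250 CPM, and SOX6 at 288 against 263 CPM. On the side of LHX6, 76 of the 109 cells that were kept out by it had exactly 1 LHX6 UMI. Doublet calling marked 3 of the 310 cells, 10 held at least 10 UMIs of 6 microglial genes (all from E60_3), and 23 had over 20000 UMIs (17 from E60_3). None of the 10 cells with microglial UMIs was marked as a doublet.

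DLX1 and DLX2 lie next to each other on chromosome 15 of Sscrofa11.1, from 78186667 to 78191788 and from 78200696 to 78204264. DLX6 and DLX5 lie on chromosome 9, from 76623489 to 76630296 and from 76639915 to 76643689. LHX6 is on chromosome 1 from 262297557 to 262322777. Of the genes the cells are compared by, NR2F1 is on chromosome 2 from 100447661 to 100457510, NR2F2 on chromosome 7 from 83076119 to 83090250, and ADARB2 on chromosome 10 from 68013531 to 68468583. Counts were made over whole genes, introns included.

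The label of these cells names NR2F1 and NR2F2 as markers, and both were found in many of them. NR2F1 had at least 1 UMI in 64.5% and NR2F2 in 49.7% of the 310 cells. As a guide to free RNA, 417 microglia-like cells of the same 5 libraries were used (at least 10 UMIs of 6 microglial genes). They were not cleared of DLX cells or doublets, and held 10 of the 310 cells and 1 DLX cell with LHX6. Their values can therefore lie above the level of free RNA. In them the shares were 15.1% and 10.3%. Their median depths were 9885 to 15550 UMIs by library, against 5661 to 8448.5 in the LHX6-negative DLX cells. After each cell was thinned to 2000 UMIs NR2F1 was found in 37.7% against 6.71% and NR2F2 in 25.5% against 1.92%. NR2F2 was found in about as many of the 310 cells as it was missed in. These cells also held MGE genes: SOX6 was found in 51.3% and NXPH1 in 60.6% of them, against 24% and 42.2% of the microglia-like cells (25.5% against 5.04% and 42.3% against 13.7% after thinning).

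NR2F1 in the LHX6-negative DLX cells was at 55.3 CPM in E50_1, 332 in E60_3, 96.9 in E70_1, 91.2 in E70_2 and 299 in E70_3. E60_3 and E70_3 were high and the 3 libraries with few members were low. In the LHX6-positive DLX cells of the same libraries it was at 17.9, 297, 106, 68.4 and 145 CPM, so that the levels of the 2 sets overlapped. NR2F2 was at 98.3, 141, 59.6, 0 and 160 CPM in the LHX6-negative and at 0, 78.4, 21.2, 32.2 and 28.3 CPM in the LHX6-positive DLX cells, higher in the former in each library but E70_2. ADARB2, an RNA-binding protein of the adenosine deaminase family, was at 240, 172, 157, 68.4 and 164 CPM against 143, 53.4, 233, 117 and 53.0. It was higher in E50_1, E60_3 and E70_3 and lower in E70_1 and E70_2. PROX1, a homeobox factor, was at 43.0, 67.6, 89.4, 22.8 and 61.3 CPM against 17.9, 23.4, 21.2, 40.2 and 49.5, and was lower in E70_2 alone. Some of these directions rest on very few UMIs. The LHX6-positive DLX cells were only 6 cells with 55814 UMIs in E50_1 and 5 cells with 47174 UMIs in E70_1. In E70_2 the LHX6-negative DLX cells held 0 NR2F2 and 2 PROX1 UMIs.

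The MGE genes lay the other way in most libraries. SOX6, a transcription factor, was at 240, 234, 157, 536 and 168 CPM in the LHX6-negative and at 323, 434, 466, 382 and 421 CPM in the LHX6-positive DLX cells, lower in the former except in E70_2. NXPH1, a secreted ligand of neurexins, was at 879, 1132, 701, 1597 and 892 CPM against 1398, 2617, 1505, 865 and 2030, again with E70_2 alone the other way. CXCR4, the receptor through which CXCL12 guides migrating interneurons, was at 104, 148, 74.5, 274 and 177 CPM against 89.6, 322, 127, 133 and 350. It was higher in the LHX6-negative cells of E50_1 and E70_2 and lower in the other 3 libraries.

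**Figure D2:**
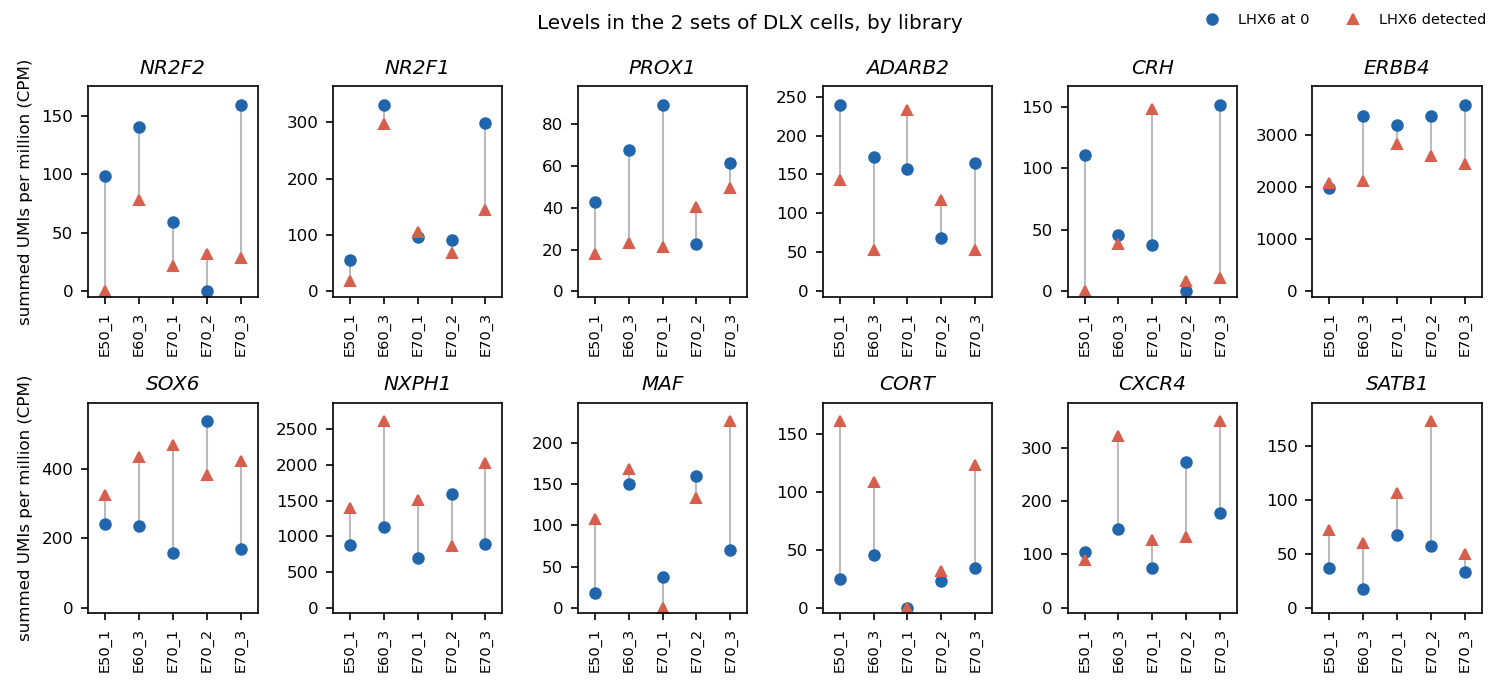
Level (CPM, linear axis) of 12 genes in each library with members, for LHX6-negative DLX cells (blue circles) and LHX6-positive DLX cells (orange triangles). NR2F2 is higher in the blue set in each library but E70_2, SOX6 and NXPH1 are lower in it in each library but E70_2, and the blue NR2F1 points of E60_3 and E70_3 stand above those of the other libraries. The orange points of E50_1 and E70_1 stand for only 6 and 5 cells.

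Several genes of mature CGE interneurons were found in few of the cells, while reelin (RELN) and calretinin (CALB2) were found in more. RELN was found in 44.2% and CALB2 in 21.3% of the cells, against 33.8% and 10.8% of the microglia-like cells (20% against 6.71% and 7.42% against 2.64% after thinning). Neither set these cells apart from the LHX6-positive DLX cells of E60_3, E70_2 and E70_3. CALB2 was lower in each, at 86.5, 0 and 25.5 against 225, 28.2 and 38.9 CPM. RELN was at 160, 205 and 294 against 544, 161 and 60.1 CPM, lower in E60_3 and higher in E70_2 and E70_3. VIP, a neuropeptide, had 24 UMIs in the 310 cells, of which 14 lay in 4 cells of E60_3 and 10 in 3 cells of E70_3, and it had 0 UMIs in the 109 LHX6-positive DLX cells. HTR3A, a serotonin-gated channel, was found in 0.645% of the LHX6-negative DLX cells, LAMP5 in 2.90%, NPAS1 in 2.90% and CCK, the peptide cholecystokinin, in 8.39%. SP8, a zinc finger factor of the CGE and lateral ganglionic eminence (LGE), had no UMI, nor had the progenitor factors GSX1, GSX2 and VAX1 or the striatal factor ISL1. CRH, a stress neuropeptide that cortical interneurons also make, was found in 20.3% of the cells, at 111, 45.5, 37.3, 0 and 152 CPM in E50_1, E60_3, E70_1, E70_2 and E70_3.

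Of 37 genes of neuronal migration 13 were found in over 50% of the cells, and the shares ranged from 6.45% (PROKR2) to 99.4% (NCAM1). The share over all genes was not counted, so the 13 are a description only. The list summed to 10515 CPM in these cells and to 9305 CPM in the LHX6-positive DLX cells of the same 5 libraries. It summed to 5566 CPM in the DLX-negative GABAergic cells described below and to 3188 CPM in the microglia-like cells. CXCR4 was found in 48.4%. ERBB4, the neuregulin receptor, was at 1979 to 3582 CPM in the 5 libraries and in 98.4% of the cells. EPHA5, an ephrin receptor, was found in 93.5%, the microtubule proteins DCLK1 in 97.1% and DCX in 88.7%, and NCAM1 is an adhesion molecule. Among glutamate receptor subunits GRIA1 was found in 94.8% and GRIN2B in 90.6%. SLC32A1, the transporter that loads GABA into vesicles, was found in 18.4%, against 54.8% of the DLX-negative GABAergic cells in the same 5 libraries (4.84% against 21.0% after thinning). The 2 sets are unlike, as the DLX-negative cells were chosen with at least 3 GAD UMIs and the LHX6-negative DLX cells with at least 1. E50_1 also gave 507 of the former and 15 of the latter. These shares mix libraries and were not tested.

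Markers of other cell types varied between libraries. The summed level of 11 excitatory neuron markers was 129 to 184 CPM across the 5 libraries, and NEUROG2 was at 0. The microglial markers summed to 17.4 to 67.1 CPM in 4 libraries and to 352 CPM in E60_3, all 8 being detected in at least 1 library. The 6 erythroid genes summed to 31995 CPM in E50_1 and 3738 CPM in E60_3, against 179 to 484 CPM at day 70. In E50_1 and in E60_3 only 1 cell each had over 5% hemoglobin UMIs. Of the 5882 HBB UMIs of E60_3, 5584 lay in the 10 cells with microglial UMIs. The oligodendroglial markers lay between 21.5 and 141 CPM, the vascular markers between 38.2 and 104 CPM and the cerebellar markers between 57 and 191 CPM. The astrocyte and radial glia markers summed to 307 CPM in E50_1, 537 in E60_3, 164 in E70_1, 137 in E70_2 and 548 in E70_3, and over all libraries to 498 CPM, against 401 CPM in the microglia-like cells. They were uneven between cells. In 11 cells of E60_3 and E70_3 (subcluster 8 below) they summed to 3684 CPM, against 52.8 to 389 CPM in the other subclusters.

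The question of how these cells differ from the DLX cells with LHX6 was tested within libraries. The LHX6-positive DLX cells met the same DLX and GAD thresholds with at least 1 LHX6 UMI and numbered 109. In the 3 libraries with at least 10 cells of each set (E60_3 with 152 and 44 cells, E70_2 with 11 and 23, E70_3 with 118 and 31), UMIs were summed per set and library and 7527 genes were tested with library as a block. Of these 1 was higher (0.0133%) and 6 were lower (0.0797%) in the LHX6-negative DLX cells by edgeR's quasi-likelihood test (Benjamini-Hochberg adjusted p under 0.05), while 542 had an unadjusted p under 0.05. These few calls depend on E70_2 and on a few deep cells, as given below.

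The gene that was higher was ERBB4, by 0.51 on the log2 scale (SE 0.086, adjusted p = 0.033 by edgeR). It was at 3358, 3365 and 3582 CPM in the LHX6-negative and 2111, 2587 and 2447 CPM in the LHX6-positive DLX cells of E60_3, E70_2 and E70_3, without overlap. Lower were SST (by 5.69 on the log2 scale), C11orf87 (2.35), GRIN3A, an NMDA receptor subunit (1.93), GAP43, a growth cone protein (1.72), GNG3, a G protein subunit (1.22), and CALM2, a calmodulin (0.89). GAP43 had an SE of 0.217 and an adjusted p of 0.0047 by edgeR. Only SST and GRIN3A of these 7 genes were also called in E60_3 and E70_3 without the cells over 20000 UMIs, where ERBB4 was higher by 0.23 (adjusted p = 0.213).

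SST rested on single cells. In the LHX6-positive DLX cells of E60_3 573 SST UMIs lay in 5 of 44 cells, 524 of them in 1 cell, and in E70_3 670 lay in 4 of 31 cells, 584 of them in 1 cell. In the LHX6-negative DLX cells there were 17 SST UMIs in 8 of 152 cells and 57 in 12 of 118 cells. In E70_2 neither set had an SST UMI. The share of cells with SST was thus low in both sets, and the fold is that of a few cells with many UMIs. C11orf87 had 33 of its 50 UMIs and 19 of its 41 UMIs in 1 LHX6-positive cell of each of E60_3 and E70_3.

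None of the genes that name the CGE or MGE passed in all 3 libraries other than SST. NR2F2 was higher by 1.16 (SE 0.395, adjusted p = 0.485 by edgeR), ADARB2 by 1.21 (SE 0.328, adjusted p = 0.276), PROX1 by 0.77 (adjusted p = 0.692) and NR2F1 by 0.50 (adjusted p = 0.637). SOX6 had a log2 difference of -0.71 (SE 0.265, adjusted p = 0.589 by edgeR) and NXPH1 of -0.64 (SE 0.617, adjusted p = 0.902). Of the 20 CGE genes 10 had enough counts to be tested, of which 0 passed, 9 had a positive difference and the median was 0.47. Of 14 MGE genes tested 1 passed, 1 had a positive difference and the median was -0.64. The median over all genes tested was -0.02.

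Without E70_2, where LHX6 UMIs were found in 35.8% of the cells with no DLX or GAD UMI, 14 genes were higher (0.149% of 9425 tested) and 18 lower (0.191%), and all 7 genes of the 3 libraries were among them. Of the 32, 15 had the same sign in E70_2. With 2 libraries this fit had 1 residual degree of freedom, and it was not repeated with DESeq2 in all these cells. ADARB2 was higher by 1.66 (SE 0.213, adjusted p = 0.0187 by edgeR), and 3 genes of the MGE list were lower: SST, NXPH1 by 1.21 (SE 0.0845, adjusted p = 0.000679) and SOX6 by 1.09 (SE 0.169, adjusted p = 0.0443). CXCR4 fell by 1.06 (SE 0.158, adjusted p = 0.0351 by edgeR). NR2F2 was higher by 1.34 (adjusted p = 0.161) and NR2F1 by 0.50 (adjusted p = 0.476) and did not pass. The cells of E60_3 with microglial UMIs moved with 1 call, SPP1, a gene of microglia, at 1484 against 252 CPM in E60_3 and 9.26 against 0 CPM in E70_3.

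Of the genes outside the lists, SORCS3, a sorting receptor of neurons, was at 167 CPM in E60_3 and 215 CPM in E70_3, against 25 and 28.3 CPM in the LHX6-positive cells. This was a log2 difference of 2.80 (SE 0.241, adjusted p = 0.00229 by edgeR), the largest rise of the 14. NR3C2, the mineralocorticoid receptor, was at 404 and 481 against 110 and 60.1 CPM (2.27, SE 0.239), and SHISA9, an AMPA receptor auxiliary protein, at 206 and 329 against 45.1 and 103 CPM (1.93, SE 0.211). SNTG1, a syntrophin of neurons, was at 705 and 860 against 347 and 357 CPM (1.13, SE 0.127). For each of these genes both libraries had higher levels in the LHX6-negative DLX cells, without overlap. In E70_2, SORCS3 was at 79.8 against 84.5, NR3C2 at 228 against 217, SHISA9 at 79.8 against 101 and SNTG1 at 217 against 342 CPM, so that NR3C2 alone was higher there. With E70_2 the differences were 2.12 for SORCS3 (adjusted p = 0.106 by edgeR), 1.72 for NR3C2 (0.379), 1.54 for SHISA9 (0.106) and 0.76 for SNTG1 (0.610), where the values in brackets are adjusted p. THRB, a thyroid hormone receptor, rose by 1.81, ZBTB16, a zinc finger repressor, by 1.41 and GRM8, a glutamate receptor, by 1.27 on the log2 scale, while the glutamate receptor GRM7 fell by 1.25 and the tubulin TUBA1B by 0.94.

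Cells with over 20000 UMIs were 17 of the 152 LHX6-negative and 7 of the 44 LHX6-positive DLX cells of E60_3, and without them the summed UMIs of the former fell from 1583290 to 1019089. When they were also left out, a choice made after the values were seen, edgeR called 88 genes higher (1.07% of 8191) and 82 lower (1.0%), while DESeq2 called 5 and 6 in the same cells. With 2 libraries this fit also had 1 residual degree of freedom, and edgeR took the spread from the trend over genes. The edgeR calls of this fit are therefore read here only beside those of DESeq2. Of the 32 genes called in E60_3 and E70_3 with these cells 20 were called without them, and 17 also after thinning every cell to 2000 UMIs. Of these 17, DESeq2 called 8, namely SORCS3, NR3C2, SHISA9 and SNTG1, which were higher, and NXPH1, SOX6, CXCR4 and SST, which were lower in the LHX6-negative DLX cells. All these fits used cells of the same 2 libraries, so they are not independent. In E70_2 only NR3C2 of the 8 had the same direction, SST had no UMI in either set, and the other genes went the other way. SST alone of the 8 also passed with 3 libraries.

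In the same cells NR2F2 was higher by 2.00 (SE 0.331, adjusted p = 5.4e-07 by edgeR and 0.307 by DESeq2). It had UMIs in 68 of 135 cells of E60_3 and 55 of 115 of E70_3, against 9 of 37 and 3 of 28 LHX6-positive DLX cells. Of 14 MGE genes tested 9 were lower by edgeR, of which DESeq2 called NXPH1, SOX6 and SST, none had a positive difference and the median was -1.16. Of 11 CGE genes 4 were higher by edgeR (NR2F2, ADARB2, NFIB and NPAS3) and none by DESeq2, and the median was 0.75, beside 0.01 for all genes. NR2F1 (0.67, adjusted p = 0.107 by edgeR) and PROX1 (0.81, adjusted p = 0.446) were not called. NR2F1 was called in none of the 19 and PROX1 in none of the 17 alternative fits of this comparison, all with a positive sign.

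**Figure D3:**
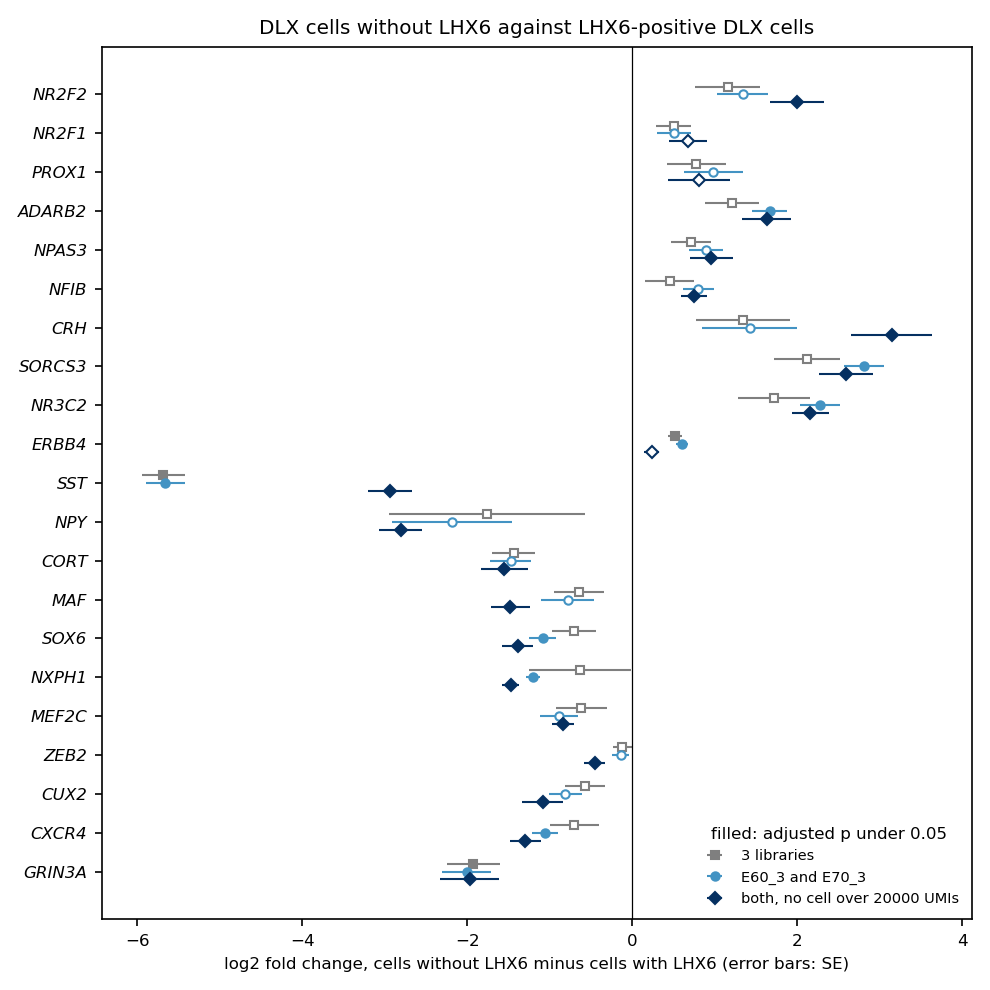
Log2 difference of LHX6-negative against LHX6-positive DLX cells for 21 genes (points, with SE as bars) in 3 libraries, in E60_3 and E70_3, and in these without cells over 20000 UMIs. Filled points passed an adjusted p of 0.05 by edgeR. SORCS3, at 2.80 in E60_3 and E70_3, is among the highest, NXPH1 and SOX6 lie below 0, and NR2F1 and PROX1 lie above 0 with open points in each.

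The other comparison was with GABAergic cells that lacked DLX: at least 3 GAD UMIs and 0 UMIs of DLX and LHX6. These DLX-negative GABAergic cells numbered 858, of which 507 came from E50_1. With E50_1, E60_3 and E70_3 as blocks (15, 152 and 118 LHX6-negative DLX cells against 507, 18 and 20), 26 of 8044 genes were higher (0.323%) and 10 lower (0.124%) in the LHX6-negative DLX cells (edgeR, adjusted p under 0.05), and 661 had an unadjusted p under 0.05. In E50_1 the erythroid genes summed to 31995 CPM in the LHX6-negative DLX cells and 4371 CPM in the DLX-negative cells. Without cells over 5% hemoglobin UMIs 21 and 8 genes were called. The LHX6-negative DLX cells of E60_3 and E70_3 enter both this comparison and the one above.

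CRH and NR2F2 stood among the genes that were higher. CRH was at 111, 45.5 and 152 CPM in the LHX6-negative DLX cells of E50_1, E60_3 and E70_3 and at 6.43, 0 and 33.8 CPM in the DLX-negative cells, a log2 difference of 3.61 (SE 0.475, adjusted p = 0.00125 by edgeR). NR2F2 was at 98.3, 141 and 160 against 43.7, 43.1 and 33.8 CPM, a difference of 1.68 (SE 0.301, adjusted p = 0.0126). Neither gene overlapped between the sets. NR2F2 was called in 13 of 15 alternative fits (adjusted p from 0.00175 to 0.635 by edgeR or DESeq2) and CRH in 10 of 14, all with the same sign. NMBR, the receptor of neuromedin B, was at 43.0, 43.6 and 62.5 against 6.25, 0 and 5.63 CPM (3.20, SE 0.569, adjusted p = 0.0123), but with 0 or 1 UMI in the DLX-negative cells of E60_3 and E70_3.

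The transcriptional regulators THRB, ZBTB16 and NFIB were also higher, by 1.88, 1.74 and 0.95 on the log2 scale. PDZRN3, a ubiquitin ligase of synapses, was higher by 2.05 and SNTG1 by 1.53. Of 12 CGE genes tested 2 were higher (NFIB and NR2F2) and the median was 0.52, and of 16 MGE genes 0 passed and the median was 0.21, beside -0.02 for all genes. ADARB2 (0.98, adjusted p = 0.0912 by edgeR), PROX1 (1.20, adjusted p = 0.581) and NR2F1 (0.36, adjusted p = 0.808) did not pass.

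The genes that were lower include markers of other brain regions. PCP4, a calmodulin regulator of Purkinje cells and other neurons, was at 135, 29.1 and 71.7 CPM in the LHX6-negative DLX cells and at 1095, 320 and 281 CPM in the DLX-negative cells (log2 difference -2.73, SE 0.266, adjusted p = 3.1e-05 by edgeR). OTX2, a homeobox factor of the midbrain, thalamus and retina, was at 12.3, 0 and 5.79 against 23.7, 49.2 and 78.8 CPM (-4.04, SE 0.834, adjusted p = 0.0416). Both were lower in each of the 3 libraries. GAP43 fell by 1.28, the kainate receptor subunit GRIK1 by 1.33, the adhesion protein DSCAM by 1.75 and ZFPM2, a cofactor of GATA factors, by 1.75. The DLX-negative set was of mixed kind, with cerebellar markers at 1665 CPM in E50_1, against 191 CPM in the LHX6-negative DLX cells there.

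**Figure D4:**
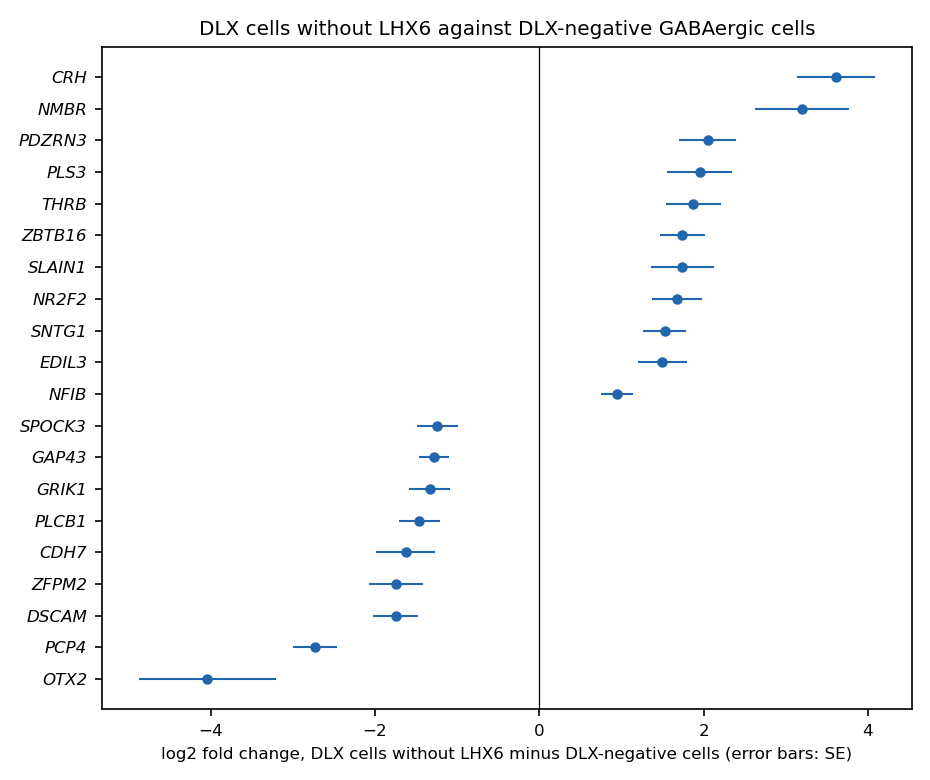
Log2 difference of LHX6-negative DLX cells against DLX-negative GABAergic cells for 20 genes with adjusted p under 0.05 by edgeR (points, SE as bars; E50_1, E60_3 and E70_3). CRH (3.61) and NMBR (3.20) lie highest, NR2F2 is at 1.68, and PCP4 (-2.73) and OTX2 (-4.04) lie lowest.

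Between day 60 and day 70 the LHX6-negative DLX cells were compared with E60_3 alone against E70_1, E70_2 and E70_3, since the other day 60 libraries had none. None of 10219 genes was higher at day 70 (0.0%) and 12 were lower (0.117%) by edgeR (adjusted p under 0.05), 269 had an unadjusted p under 0.05, and DESeq2 called 0 and 3. The lone E60_3 sample is assumed to vary like the day 70 libraries, and stage and library cannot be told apart. The 12 included TYROBP, C1QA and C1QB, genes of microglia and other macrophages. SPP1 was at 1484 CPM in E60_3 and at 37.3, 0 and 9.26 CPM at day 70, and HBB, a hemoglobin chain, at 3715 against 455, 262 and 172 CPM. CTSZ, a lysosomal protease, was at 80.2 CPM in E60_3 and had no UMI at day 70. Without the 10 cells of E60_3 that held microglial UMIs no gene was called in either direction, and the same held without E70_1. HBB, the only erythroid gene among the 12, had a difference of 0.27 without cells over 5% hemoglobin UMIs. Only 1 of the 152 cells of E60_3 was over that limit, so the difference in HBB rested on that cell.

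No gene of the CGE list (12 tested), the MGE list (16) or the migration, receptor, synapse and neuropeptide lists passed between the stages. NR2F1 differed by -0.98 and NR2F2 by -0.74 (day 70 against day 60, adjusted p = 1.0 by edgeR). In simulated counts of this layout 3 of 96 genes changed by 2 on the log2 scale were found, so changes of that size would mostly be missed. Those counts held no differences between libraries and the same spread for all genes. Without E70_3, 475 genes were called higher and 191 lower at day 70. In that fit edgeR took the spread from the trend over genes, and both remaining day 70 libraries were those with LHX6 UMIs in many cells without DLX and GAD UMIs.

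To describe how the 310 cells vary among themselves they were grouped by Louvain clustering, with the genes of the rule and of all lists left out. The 9 subclusters are numbered by size and not named as cell types. Since they come from these cells, their levels are a description with no test. The groups also depend on the resolution of 1, as at 0.6 the largest subcluster held 144 cells, against 60 here.

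Subclusters 1 to 4 held 216 cells of E60_3 and E70_3, from both libraries each. Subcluster 1 (60 cells, 40 and 20) was led by NXPH1, TMEM132D and LHFPL3. Although LHX6 was at 0 by the rule, NXPH1 was found in 98.3% of its cells, MAF in 85.0%, SOX6 in 71.7% and NR2F2 in 8.33%, and the MGE list summed to 8848 CPM, against 1679 to 3571 CPM in the other subclusters. Its levels go against the label, which names NR2F2 as a marker. Subcluster 2 (55 cells, 29 and 26), led by KHDRBS2, SNTG1 and SOX5, was the reverse: NR2F2 was found in 74.5%, NR2F1 in 80.0%, PROX1 in 50.9% and CRH in 38.2% of its cells.

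Subcluster 3 (51 cells) was led by MEIS2, a homeobox factor of the LGE, which was found in 66.7% of its cells at 814 CPM, with RFX2 and POU3F2. NR2F1 was found in 88.2% of them. Subcluster 4 (50 cells) was led by NR3C2, SORCS3 and ZBTB16, with ADARB2 in 80.0% of its cells at 418 CPM and VIP in 10.0%. SORCS3 and NR3C2 thus led 1 of the subclusters. Both were called higher than in LHX6-positive DLX cells in E60_3 and E70_3, but not when E70_2 was included.

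Subcluster 5 (33 cells, 25 of them from E70_3) was led by CALM2, YWHAB and ATP1B1, and reelin (RELN) was found in 66.7% of its cells at 920 CPM. It held the peptides CRH at 258, NPY at 144 and SST at 144 CPM, and SLC32A1 in 48.5% of its cells. Subcluster 8 (11 cells, median 18063 UMIs) was led by PTN, MT3 and FABP7, genes of radial glia and astrocytes, with the cycle gene TOP2A in 45.5% of its cells.

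The remaining subclusters followed libraries. Subcluster 6 held all 25 cells of E70_1 and E70_2 and was led by FYB1, which was also high in the cells of those libraries with no DLX or GAD UMI (1797 and 1938 CPM, against 125 CPM in E70_3). Subcluster 7 held all 15 cells of E50_1, led by TUBB3, with HBB at 31676 CPM and 1 cell over 5% hemoglobin UMIs. Subcluster 9 held the 10 cells of E60_3 with microglial UMIs, at a median of 33295 UMIs. In these 3 subclusters, library or depth and cell state cannot be told apart.

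**Figure D5:**
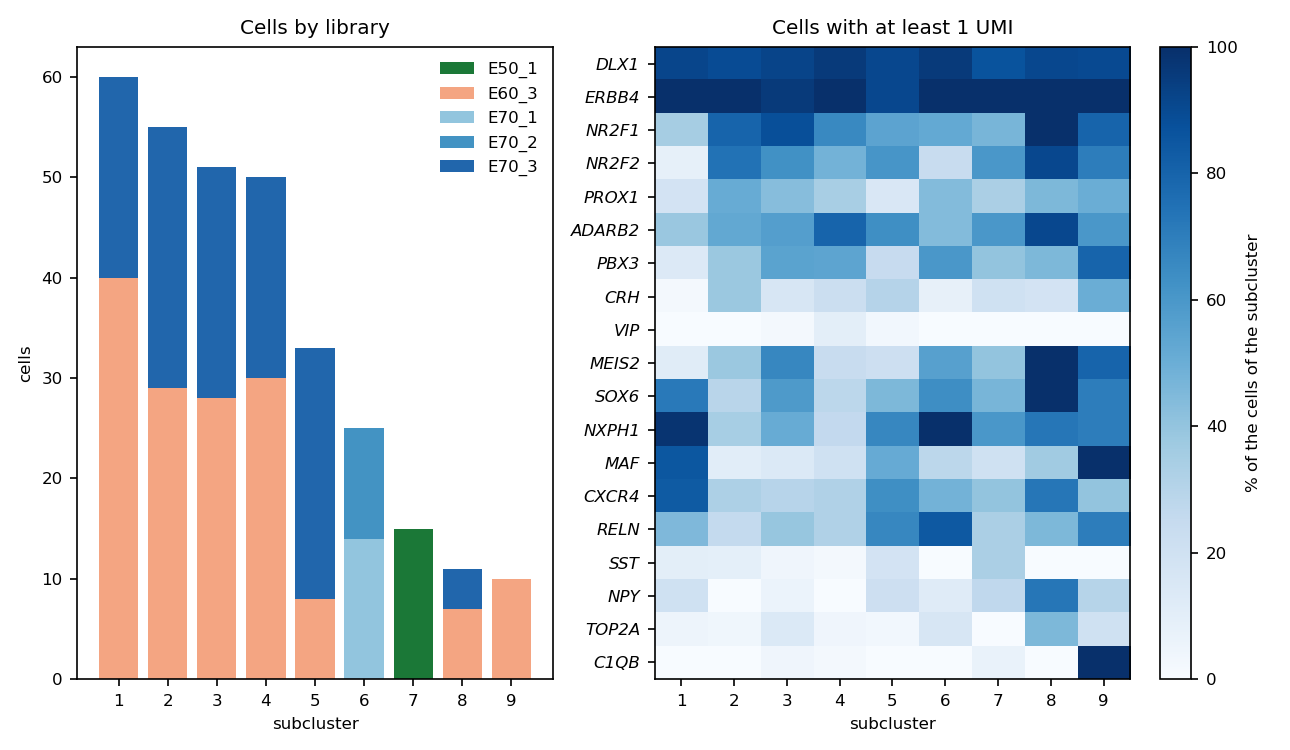
Left, number of LHX6-negative DLX cells per subcluster, coloured by library. Right, percent of cells of each subcluster with at least 1 UMI of 19 genes. Subcluster 1 (60 cells) shows NXPH1 in 98.3% and NR2F2 in 8.33% of its cells, subcluster 2 NR2F2 in 74.5%, and subclusters 6, 7 and 9 hold cells of E70_1 and E70_2, of E50_1 and of E60_3.

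Pairs of genes were also counted per cell. NR2F2 and SOX6 were found together in 68 of the 310 cells, where 79.0 would be expected from their separate shares, and in 14 against 20.1 after thinning to 2000 UMIs. NR2F2 and PROX1 were found together in 72 cells where 54.1 would be expected (14 against 9.68 after thinning), and NR2F2 and ADARB2 in 103 against 88.4 (28 against 19.4). ADARB2 and SOX6 were found together in 82 cells against 91.3 expected (11 against 19.4). PROX1 and SOX6 were found together in 49 cells against 55.9 expected, and in 10 against 9.68 after thinning. NR2F2 and MEIS2 were found together in 66 against 59.6, and in 16 against 17.3 after thinning. For the latter 2 pairs the direction thus changed with thinning. NR2F1 and MEIS2 were found together in 94 cells against 77.4 (39 against 25.7). These counts mix libraries of different depth and were not tested.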

How the data were processed

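The authors deposited 1 table of raw UMI counts per library, made from 10x version 2 chemistry reads with Cell Ranger (2.20 in the submitters' processing notes) on Sscrofa11.1, introns included. All barcodes in the files were used. No doublets were removed: Scrublet (scikit-image 0.26.0, scanpy 1.11.5) marked 0% to 2.52% of the cells of a library and did not work in E60_1. It marked 0% in E60_1 and in E60_2, 0.334% in E60_3 and 0.192% in E70_3, so the fits without its doublets left out few cells. Of 22452 genes, 14970 had a symbol in the files and 987 were given one from RefSeq.

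The DLX cells, comparison sets and gene lists were chosen with earlier results of these data known. Counts were summed per library and cell set and tested with edgeR 4.0.16 in R 4.3.3 (TMM, filterByExpr, quasi-likelihood, library as a block, Benjamini-Hochberg adjustment, 10 cells per set). The 7 genes of the rule stayed in the totals and were not tested. DESeq2 1.42.0 was the alternative. CPM divides the summed UMIs of a gene by all UMIs of the cells. Named were genes of the lists and, outside them, up to 8 per direction with the largest change, adjusted p under 0.05, at least 20 CPM in the higher set and 1 direction in every library; genes of the fits added later were named after their values were seen. Subclusters used 2000 variable genes, 30 components, 15 neighbours and resolution 1 (igraph 0.11.9). The summed sets of the main comparison held 87678 to 1583290 UMIs. Both sets of a library come from the same loaded cells, and their deviations from the set means correlated with r of 0.432 to 0.556 (first comparison) and 0.233 to 0.575 (second). On simulated counts the first comparison found 60 of 94 genes changed by 1 and 83 of 84 changed by 2 on the log2 scale, with 4 false calls among 7400 genes, and the second 28 of 92 and 85 of 92. The simulated counts had the same mean profile in every library and the same spread for all genes. They therefore do not show how genes that differ between libraries, or that vary more, would be called. Separate libraries are the replicates, some of which pool brains. The difference between stages of the first comparison could not be fitted, since 1 day 60 library had both sets.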

Additional observations from a re-analysis of the deposited data

Results flagged for a closer look

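In the adult whole cells, which no comparison used, 5 of 737 cells passed the same rule (0.678%, exact 95% CI 0.221 to 1.58). This was set apart because it is a signal in data outside the comparisons, with no adult control for it. The 5 cells had 27117 to 107047 UMIs, which is 3.93 to 15.5 times the median of 6893 in that library. VIP had 245 and 90 UMIs in 2 of them and 0 or 1 in the other 3, CCK had 23 to 78 in each, and NR2F2 had 2 to 22 and ADARB2 3 to 33. MBP, a myelin gene of oligodendrocytes, had 20 to 105 UMIs in the same cells, and 2 of the 5 held at least 10 microglial UMIs. The part of free RNA or doublets was not tested.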

How the results depend on the processing

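Calls are given as genes higher and lower in the LHX6-negative DLX cells. Against LHX6-positive DLX cells (1 and 6) DESeq2 called 0 and 1, no normalization 4 and 10, no filter on low counts 42 and 35, a fit with no library block (no pairing by replicate) 0 and 0, at least 20 cells 14 and 18, at least 5 cells 0 and 0, a minimum of 5 DLX UMIs 2 and 3, thinning 5 and 8, no Scrublet doublets 2 and 7, no microglial UMIs 3 and 11, and no cells over 20000 UMIs 3 and 4. Without 1 library the counts ranged from 0 to 14 and from 0 to 18. Without E60_3 they were 0 and 1, without E70_2 14 and 18, and without E70_3 0 and 0. Without E70_2 and deep cells they were 88 and 82 (DESeq2 5 and 6), and without E70_2 after thinning 35 and 35. Against DLX-negative GABAergic cells (26 and 10) the counts were 18 and 9 with DESeq2, 19 and 13 with no normalization, 46 and 41 with no filter, 0 and 0 with no library block, 17 and 12 with at least 5 cells, 28 and 24 with 5 DLX UMIs, 3 and 3 after thinning, 13 and 5 with cells of at least 5000 UMIs, 34 and 14 with no doublets, 52 and 18 with no microglial UMIs, 21 and 8 with no hemoglobin-rich cells and 23 and 18 with no deep cells. Without 1 library they ranged from 15 to 61 and from 16 to 37 (15 and 16 without E50_1, 61 and 37 without E60_3, 45 and 27 without E70_3). Between stages (0 and 12) they were 0 and 3 with DESeq2, 0 and 11 with no normalization, 18 and 15 with no filter, 1 and 1 after thinning, 0 and 9 with no hemoglobin-rich cells, and 0 and 0 without microglial UMIs or deep cells. Without 1 library they ranged from 0 to 475 and from 0 to 191 (0 and 0 without E70_1, 0 and 11 without E70_2, 475 and 191 without E70_3). The causes of these changes were not tested. With the replicate block the share of these cells differed between stages by the same 0.922 percentage points (exact paired permutation p = 0.75), and without 1 library by -0.0174 to 2.80. No paired analysis was possible because the stages share only replicate 3 for the comparison of levels. At least 20 cells left 1 library against DLX-negative cells, and 5 DLX UMIs left 1 library per stage, so neither was tested. Of 707 alternative values for 50 genes 485 kept direction and call, 39 gained and 175 lost the call, and 8 changed sign. On the log2 scale these were GNG3 (0.0714) and CALM2 (0.00705) by DESeq2 and CALM2 (0.0200) by edgeR without E70_2 and deep cells, NPY against LHX6-positive cells (-2.19 to 0.0158 over the fits without 1 library), HBB (0.25, 0.27 and 0.19 without microglial UMIs, hemoglobin-rich or deep cells) and LGALS1 (0.0400) without deep cells. Leaving out nuclei, E60_1 or E60_2 changed no comparison of levels, since they hold none of these cells. Subclusters numbered 7 at resolution 0.6 and 12 at 1.4. Their adjusted Rand index with the 9 subclusters was 0.509 and 0.802, where 1 means the same grouping.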

Other observations

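SOX2, a factor of neural progenitors, was found in 38.7% of the LHX6-negative DLX cells, at 73.8 CPM over all of them. NOS1, which makes nitric oxide, was found in 25.8% of the cells and ranged from 12.3 to 205 CPM across the 5 libraries. The striatal genes PENK and TAC1 were found in 4.52% and 4.84%, and PENK was at 7.06 CPM against 320 CPM in the DLX-negative GABAergic cells. PAX7 and GATA3, factors of midbrain neurons, were found in 7.10% and 4.84% of the LHX6-negative DLX cells. They varied between libraries, on 2 to 9 UMIs in each of E60_3, E70_1, E70_2 and E70_3. PAX7 was at 59.6 CPM in E70_1 and 34.2 in E70_2, against 5.68 in E60_3 and 5.79 in E70_3. GATA3 was at 52.2 and 45.6 against 2.53 and 2.31 CPM. The shares and pooled levels are over libraries of unequal depth, and no cause of these values was tested.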
